A study of Mus musculus with 48 samples.

Results

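The 78 nuclear genes of the mitochondrial ribosome (49 named Mrpl and 29 named Mrps) were followed in the mouse cortex at 3 ages. They were chosen by symbol: every protein-coding gene of the table whose symbol starts with Mrpl or Mrps and a digit was taken, and pseudogenes were left out. No measured value entered the rule, though earlier results of these data were known when it was chosen. They are 78 of the 48526 genes counted. The samples came from the cerebral cortex of 12 male mice of the C57BL/6JRj strain, for which the labels name no treatment or altered gene, 4 each at 3 weeks (3w), at 5 months (5m; the age label of these mice reads 6 months, the protocol 5 months) and at 18 months (18m). Each mouse gave 4 libraries, 48 in all. The total homogenate (TH) is the RNA of the whole cortex, and the synaptosome fraction (SYN) holds pinched-off nerve endings with the attached postsynaptic membrane, collected from a sucrose gradient. From both, RNA was sequenced directly (input_TH and input_SYN) or after a lysate treated with cycloheximide had been spun through a dense sucrose cushion (SC_TH and SC_SYN), which pellets ribosomes with the mRNAs they carry. The study reads SC over input within a compartment, and SC_SYN over SC_TH, as measures of translation (translational efficiency). For synaptic enrichment the study used SYN over TH in RNA-seq of a separate set of mice. The same ratio of the inputs is given here. Each pellet also holds other heavy particles, and a synaptosome fraction holds pieces of glia.

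Mitochondria carry their own ribosomes, which make a few membrane subunits of the respiratory chain from the mRNAs of mitochondrial DNA. All of the proteins of these ribosomes are encoded in the nucleus, translated by cytosolic ribosomes and imported. The large subunit (mostly Mrpl genes) joins amino acids, and the small subunit (mostly Mrps genes) holds the mRNA. Both contain proteins with a bacterial homologue and proteins found in mitochondria only. Axons and their endings are rich in mitochondria, and mRNAs of nuclear mitochondrial genes are among those known to be translated there.

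Of the 78 genes, 29 encode large-subunit proteins with a bacterial homologue, 22 large-subunit proteins specific to mitochondria, 16 small-subunit proteins with a bacterial homologue and 10 small-subunit proteins specific to mitochondria. Mrps36 was kept apart, since its product is now known as a part of the alpha-ketoglutarate dehydrogenase complex, and Mrps18a and Mrps30 were counted with the large subunit, where their proteins sit. The genes lie on 17 autosomes. Their median exonic length was 2394 bases (607 to 8631) against 3509 for all 21760 protein-coding genes, and 53 were shorter than that median. Reads were counted without regard to strand. Exons of 33 members overlap those of another gene, by at least 25% of the exonic length in 7 of them, Mrpl53 (88.0%), Mrps34 (77.8%), Mrps25 (69.8%), Mrpl19 (36.0%), Mrpl43 (33.4%), Mrps18b (30.5%) and Mrpl24 (26.3%), and reads from such genes and their partners could not be told apart.

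A library held between 1780267 and 18590040 counts, of which 1325 to 25978 fell on the 78 genes. Input_TH libraries were even (9699909 to 13225435 counts), input_SYN libraries were the shallowest (1780267 to 7879536), and the depth of SC_TH rose with age, with means of 4770000 (3w), 9190000 (5m) and 12400000 (18m) counts. The homogenate and the synaptosome fraction differed in their markers. A list of 8 nuclear RNAs (Malat1, Neat1, Meg3 and others) summed to 17100 to 20000 CPM (counts scaled to the same total in each library, with TMM, a correction for composition, over all 48) in input_TH and to 1760 to 4410 in input_SYN. The 8 neuronal markers summed to 5580 to 6650 CPM in input_TH and to 16300 to 17700 in input_SYN (4 of 8 called higher at each age, and 3, 3 and 1 lower), and the 8 astrocyte markers to 3710 to 5140 and 13400 to 16900. Of 6 endothelial markers, summed at 136 to 230 CPM in input_TH, 5.31 to 18.2 CPM were left in input_SYN, with Cldn5 and Ly6c1 at 0 in some libraries. In bulk tissue, fewer cells of a type and less RNA per cell cannot be told apart.

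Transcripts of the mitochondrial ribosome stood below those of the cytosolic ribosome and of the respiratory chain in their median level. Per kilobase of exon, the median member stood at 4.45 CPM per kb in input_TH (quartiles 2.90 and 7.48, means of 12 libraries), against 22.3 for the cytosolic ribosomal protein genes and 18.5 for the nuclear genes of the respiratory chain. The 4 structural classes had similar medians, 4.22 and 5.14 for the large subunit (bacterial homologue, mitochondria-specific) and 3.89 and 5.20 for the small subunit.

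The most abundant members per kilobase in input_TH were Mrps21, a small-subunit protein with a bacterial homologue (20.8 ± 1.94 CPM per kb, SD, n = 12), Mrpl41, a mitochondria-specific large-subunit protein (19.5 ± 1.90), and Mrpl12, which forms the stalk where translation factors bind (16.9 ± 1.27). The order of Mrps21 and Mrpl41 lies within their spread. At the lower end stood Mrps22, a mitochondria-specific small-subunit protein (1.37 ± 0.146 CPM per kb), and Mrpl32, a large-subunit protein that is cut by a mitochondrial protease before it is assembled (0.371 ± 0.0719). Mrpl53 had no count in any of the 48 libraries. Its exons are overlapped to 88.0% by 2 other genes, so its reads may not have been assigned, and it was not tested. The other 77 genes had a count in every library, and between 58 and 77 of them had at least 10 counts in an input_SYN library.

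**Figure D1:**
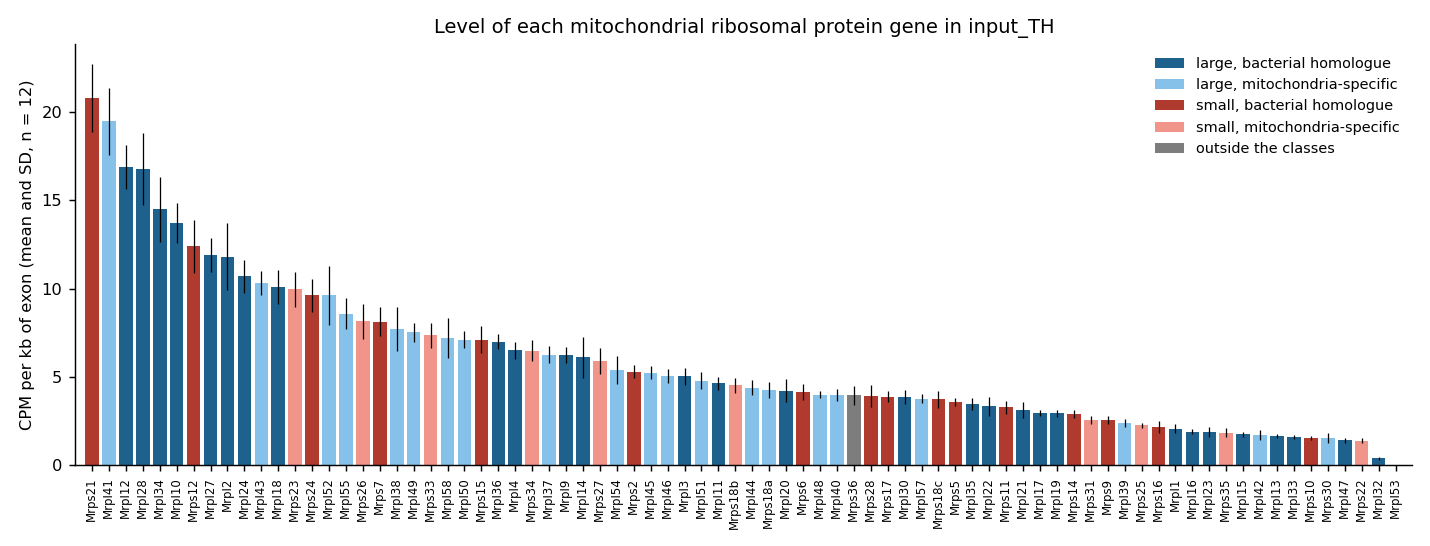
Level of each mitochondrial ribosomal protein gene in input_TH, in CPM per kilobase of exon on a linear axis from 0, ordered from high to low and coloured by structural class, with bars for the mean and lines for the SD of 12 libraries. Mrps21, Mrpl41 and Mrpl12 lead, Mrpl32 is last among the genes with counts, and the 4 classes are mixed along the order.

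Promoters of these genes were compared by the letters they hold, since NRF1, factors of the ETS family (such as NRF2/GABP) and YY1 are known regulators of nuclear genes for mitochondria. RefSeq promoters (GRCm38.p6, from 250 bases before to 50 after the start) were found for 69 of the 78 genes, and both strands were searched. The letters GCGCATGC (NRF1) stood in 8 of the 69 genes (11.6%), against 2.71% of all 32851 promoter windows and 4.13% of 16425 coding genes. CCGGAAGT (ETS) stood in 12 (17.4%), against 3.89% of windows and 5.95% of coding genes, and AAGATGGC (YY1) in 12 (17.4%), against 2.75% and 3.65%. GGGCGG (Sp1) was found in 34 (49.3%), near its share among coding genes (51.2%). In all, 29 of the 69 held an NRF1, ETS or YY1 match. A match describes letters and not a binding site.

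The 100 bases before the start are shown for 6 genes on which results below turn, with the matches in capitals on the gene's own strand: Mrpl32 and Mrpl33 for NRF1, Mrpl3, Mrps22 and Mrps26 for ETS, and Mrpl36 for YY1. Mrpl32 (chr13:14613038-14613137, minus strand) holds 4 NRF1 matches, a pair of them overlapping. Mrpl33 (chr5:31613851-31613950, plus strand) holds its match 12 to 5 bases before the start, so at -12 to -5. The ETS matches stand at -19 to -12 in Mrpl3 (chr9:105053168-105053267, plus), at -11 to -4 in Mrps22 (chr9:98601680-98601779, minus) and at -15 to -8, on the other strand, in Mrps26 (chr2:130563657-130563756, plus). The YY1 match of Mrpl36 (chr13:73330909-73331008, plus) is on the other strand at -30 to -23.
Mrpl32: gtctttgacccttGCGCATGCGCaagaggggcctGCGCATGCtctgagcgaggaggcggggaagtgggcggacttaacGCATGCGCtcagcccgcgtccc
Mrpl33: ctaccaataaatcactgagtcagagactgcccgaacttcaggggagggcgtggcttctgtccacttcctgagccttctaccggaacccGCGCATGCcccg
Mrpl3: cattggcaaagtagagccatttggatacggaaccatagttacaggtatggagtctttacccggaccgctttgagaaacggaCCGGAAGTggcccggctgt
Mrps22: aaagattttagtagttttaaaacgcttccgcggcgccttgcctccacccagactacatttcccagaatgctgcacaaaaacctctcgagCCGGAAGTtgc
Mrps26: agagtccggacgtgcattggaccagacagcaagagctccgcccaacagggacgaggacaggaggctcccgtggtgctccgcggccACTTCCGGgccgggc
Mrpl36: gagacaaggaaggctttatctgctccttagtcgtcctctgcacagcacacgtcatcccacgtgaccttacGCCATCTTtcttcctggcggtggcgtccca

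Summed over the library, the 78 genes made up a larger share of the counts in TH than in SYN, and a larger share after the cushion than before it. In input_TH they took 0.124% ± 0.00189 of all counts at 3w, 0.128% ± 0.00287 at 5m and 0.131% ± 0.00222 at 18m (mean ± SD, n = 4). In SC_TH the share was 0.134% ± 0.00594, 0.149% ± 0.00819 and 0.165% ± 0.00465. In input_SYN it was 0.0741% ± 0.00343, 0.0754% ± 0.00241 and 0.0757% ± 0.00795, and in SC_SYN 0.0973% ± 0.0092, 0.0949% ± 0.00411 and 0.0940% ± 0.00442. At each age the shares of the 4 fractions did not overlap, with input_TH and SC_TH closest at 3w (0.125% at most against 0.126% at least). A share rests on raw totals, and the order of the TH and SYN pellets depends on the scaling. In CPM with TMM the members summed to 1060 to 1160 in SC_TH and 1100 to 1240 in SC_SYN at 3w. At 5m the sums were 1210 to 1330 and 1140 to 1220, so the pellets overlapped at both ages. At 18m they were apart (1360 to 1410 and 1010 to 1220). The inputs kept their order in the mean, with 1010, 1020 and 1080 CPM in input_TH and 892, 935 and 919 in input_SYN. Their values overlapped at 5m only. The mean share was higher at each later age in SC_TH and, by less, in input_TH, and the means of each synaptosome fraction differed by less than their SD. No p was computed for a sum over chosen genes, and each gene was tested on its own.

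**Figure D2:**
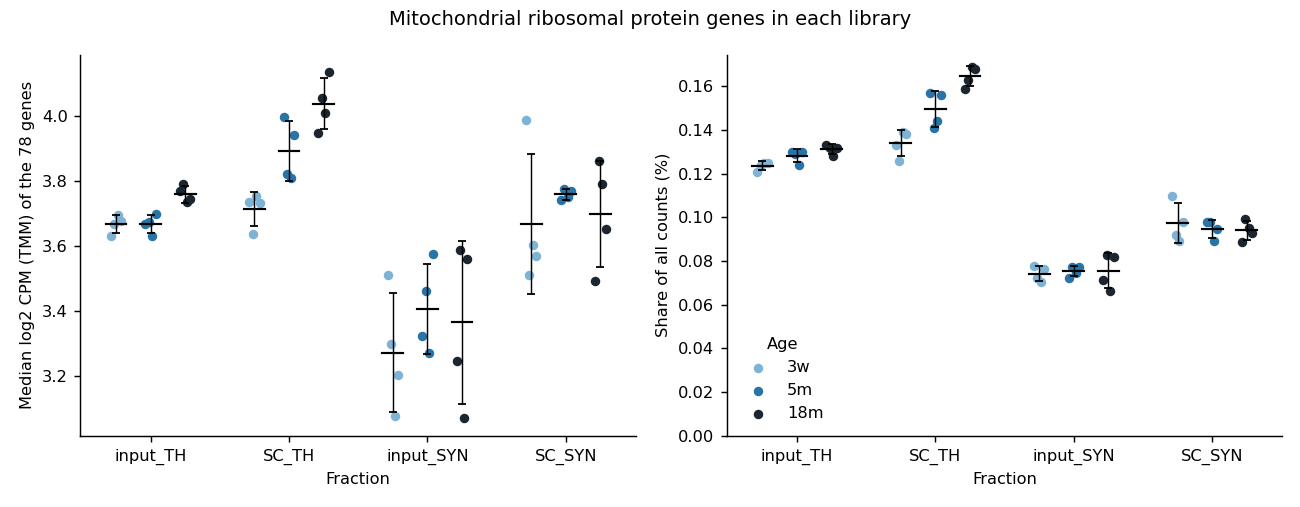
Left, the median log2 CPM of the mitochondrial ribosomal protein genes, and right, their share of all counts in percent, for each library by fraction and age, with points for mice and lines and bars for the mean and SD of 4 mice. SC_TH climbs from a share of 0.134% at 3w to 0.165% at 18m, input_TH moves less, from 0.124% to 0.131%, and the means of input_SYN and SC_SYN differ by less than their SD.

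Every test below was edgeR's quasi-likelihood test, with p-values adjusted (Benjamini-Hochberg) over all genes tested and a threshold of 0.05, and changes are log2 fold changes with their standard errors. Beside counts of called members stands the share of all tested genes called, and beside counts at an unadjusted p under 0.05 or without overlap between groups the share of all genes for which the same held. Comparisons of neighbouring fractions or ages share libraries: SC_TH enters both SC_TH over input_TH and SC_SYN over SC_TH, and 5m enters both age steps. Their values are given side by side and not as independent support for each other.

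The clearest difference lay between the cushion pellet and the input of the total homogenate. At 3w, 25 of 77 tested members were higher in SC_TH than in input_TH and 11 were lower, where 26.1% of all 18416 genes tested were higher and 26.6% lower. At 5m 44 were higher and 5 lower (all genes 29.9% and 32.2%), and at 18m 56 were higher and 5 lower (31.3% and 32.7%). As shares, 32.5%, 57.1% and 72.7% of the members were higher at the 3 ages. Their median log2 fold change was 0.17, 0.34 and 0.46, against -0.05, -0.05 and -0.01 for all genes. With GC and length trends removed, the member median moved by -0.088, -0.034 and -0.03. The median of all genes moved by 0.035, 0.037 and 0.026. Across the members the fold change ran against exonic length (rho = -0.25, -0.47 and -0.41). Removing the trends moved the member median most at 3w, where this rho was weakest. The part of these gene properties in the difference was not tested. Within single mice, the median over the members was 0.12, 0.02, 0.20 and 0.12 at 3w, 0.45, 0.23, 0.30 and 0.40 at 5m, and 0.37, 0.43, 0.45 and 0.44 at 18m, so all 12 mice were above 0 and the 4 youngest lay below the 8 others. The values of the 4 mice did not overlap between SC_TH and input_TH for 31, 40 and 57 of 77 members (40.3%, 51.9% and 74.0%, against 47.9%, 51.8% and 57.8% of all genes).

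Each structural class held members that were higher at each age. Of all genes 26.1%, 29.9% and 31.3% were higher and 26.6%, 32.2% and 32.7% lower, and no class was tested against them. At 3w the share higher in the first class below was under that of all genes. Among the 29 large-subunit genes with a bacterial homologue, 6, 16 and 21 were higher at the 3 ages and 3, 2 and 1 lower. Of 21 tested mitochondria-specific large-subunit genes, 8, 11 and 17 were higher and 4, 0 and 1 lower. The small subunit gave 7, 11 and 10 higher of 16 (bacterial homologue; 3, 2 and 2 lower) and 4, 5 and 7 higher of 10 (mitochondria-specific; 1 lower at each age). At all 3 ages 22 members (28.6%, against 19.2% of all genes) were higher, and Mrpl33, Mrps10 and Mrps24 (3.9%, against 17.9%) were lower. Without the members whose exons overlap another gene by 25% or more, the counts were 23, 40 and 51 higher of 71.

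Other gene groups differed in the same comparison. Nuclear genes of the respiratory chain, whose proteins join those made by mitochondrial ribosomes, were higher in SC_TH for 49, 63 and 68 of 74, and 8, 0 and 1 were lower. Genes of the cytosolic ribosome went the other way, with 20, 19 and 20 of 80 higher and 45, 37 and 28 lower. The mRNAs encoded in mitochondrial DNA, which cytosolic ribosomes do not translate, were lower for 12 genes at every age, with medians of -2.98, -2.38 and -1.34. The 8 nuclear RNAs were lower for 7, 8 and 8 genes (medians -0.77, -1.24 and -1.68), and their summed level in SC_TH was 10700 to 14100 CPM at 3w, 7710 to 11400 at 5m and 5480 to 6520 at 18m. Astrocyte markers were higher for 8 of 8 at each age, microglia markers for 5, 6 and 8 of 8, and neuronal markers for 7, 8 and 8 of 8. The part of these shifts in the members' ratios was not tested.

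Mrps33, a mitochondria-specific small-subunit protein (chromosome 6, 39801804 to 39810988, minus strand, no exon overlap), had the largest increase at every age. In input_TH its CPM were 10.7, 13.2, 12.7 and 13.3 in the 4 mice at 3w, 11.8, 11.4, 12.6 and 13.1 at 5m, and 13.9, 10.3, 10.8 and 13.2 at 18m. In SC_TH they were 53.3, 53.3, 48.9 and 49.8 at 3w, 34.9, 49.8, 43.6 and 32.7 at 5m, and 46.7, 41.0, 35.4 and 30.8 at 18m. Every pellet was above every input, by a log2 fold change of 2.06 ± 0.13 at 3w (adjusted p = 7.74e-13), 1.70 ± 0.13 at 5m (adjusted p = 1.18e-11) and 1.68 ± 0.13 at 18m (adjusted p = 8.51e-12). Per kilobase Mrps33 stood in place 21 of the members in input_TH (7.35 CPM per kb) and in place 2, behind Mrps21, in the other 3 fractions (26.0 in SC_TH, 18.4 in input_SYN, 26.7 in SC_SYN).

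Mrpl20, a large-subunit protein whose bacterial homologue is needed for assembly, was among the next. Its CPM in input_TH were 6.41, 9.77, 5.49 and 8.10 at 3w and 6.82, 6.52, 6.02 and 6.43 at 5m. In SC_TH they were 17.8, 16.6, 17.0 and 20.9, then 15.1, 15.6, 17.7 and 14.1. The groups lay well apart, with log2 fold changes of 1.29 ± 0.13 at 3w, 1.28 ± 0.13 at 5m and 1.16 ± 0.12 at 18m (adjusted p = 5.19e-09, 2.14e-09 and 5.17e-09). Mrps6, a small-subunit protein with a bacterial homologue, was higher by 1.29 ± 0.13, 1.00 ± 0.12 and 1.03 ± 0.12, from 5.86 to 6.27 CPM in input_TH and 12.9 to 15.7 in SC_TH at 3w. Mrps12, which sits at the site where codons are read, was higher at all ages (0.48 ± 0.13, 0.94 ± 0.12 and 0.87 ± 0.11), as was Mrps18c, 1 of 3 related members (1.06 ± 0.21, 0.82 ± 0.19 and 0.58 ± 0.19). Exons of Mrps18c overlap those of Gm43511 by 23.2%, and exons of Mrps6 overlap those of Slc5a3 by 10.4%.

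Mrpl32 and Mrps36 were also higher in the pellet at 18m. Mrpl32, the least abundant member with counts, had 1.07, 1.76, 1.91 and 1.63 CPM in input_TH at 18m and 4.59, 4.94, 3.66 and 3.51 in SC_TH. The groups did not overlap (1.39 ± 0.23, adjusted p = 5.92e-06). At 3w its log2 fold change was 0.57 ± 0.27 (adjusted p = 0.0728), and at 5m it was called with overlapping groups (0.73 ± 0.23, adjusted p = 0.00733). Mrps36 had 5.97, 4.19, 4.74 and 5.03 CPM in input_TH at 18m and 10.0, 11, 12.0 and 8.33 in SC_TH (1.06 ± 0.19, adjusted p = 2.61e-05), again without overlap. Mrps36 was called at 5m as well, with overlapping groups (0.64 ± 0.20, adjusted p = 0.00714).

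Mrps10 (chromosome 17, 47368887 to 47381417, plus strand), the homologue of a protein in the head of the bacterial small subunit, and Mrpl33 (chromosome 5, 31596935 to 31664384, plus strand), a small large-subunit protein, went the other way. Mrpl33 had 12.3, 12.4, 11.2 and 11.7 CPM in input_TH at 3w and 6.19, 6.49, 4.23 and 6.06 in SC_TH. Mrps10 had 11.8, 10.7, 11.3 and 12.8 CPM in input_TH and 5.28, 5.73, 6.92 and 4.4 in SC_TH at the same age. In both genes all pellets were below all inputs. The log2 fold changes of Mrpl33 were -1.08 ± 0.17, -0.95 ± 0.15 and -0.84 ± 0.14 from 3w to 18m, and those of Mrps10 -1.0 ± 0.16, -0.71 ± 0.13 and -0.50 ± 0.13. Mrps24, whose exons overlap those of Urgcp by 15.4%, was lower by a log2 fold change of -1.2 ± 0.17 at 3w (adjusted p = 1.77e-06), then -0.41 ± 0.15 at 5m and -0.39 ± 0.14 at 18m, calls lost without mouse 192 or 193 and without mouse 195 or 196 (-0.35 or -0.31, and -0.21 or -0.37).

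**Figure D3:**
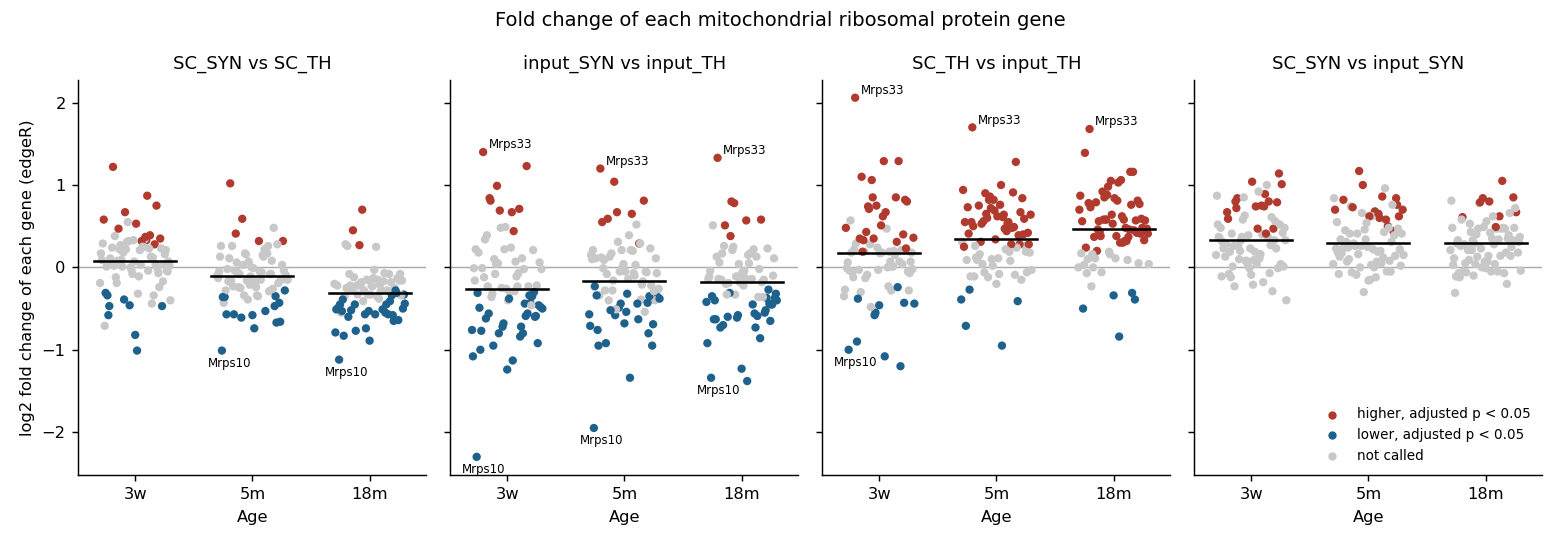
The log2 fold change of each tested mitochondrial ribosomal protein gene in the 4 fraction comparisons at 3w, 5m and 18m (red, higher and blue, lower at an adjusted p under 0.05; grey, not called; black line, median). Medians lie at 0.17, 0.34 and 0.46 in SC_TH over input_TH and below 0 in input_SYN over input_TH, with Mrps33 highest and Mrps10 or Mrpl33 lowest there.

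Members that were lower in SC_TH at 3w and not later included Mrpl52, a mitochondria-specific large-subunit protein (-0.90 ± 0.17, adjusted p = 7.65e-05), Mrps18a (-0.58 ± 0.14, adjusted p = 0.000879), the stalk protein Mrpl12 (-0.55 ± 0.16, adjusted p = 0.00523) and Mrps30 (-0.38 ± 0.15, adjusted p = 0.038). Whether such a pellet ratio itself changed with age was tested as an interaction. From 3w to 5m 1 of 77 members was called, Mrps18a, where 2.33% of all genes were. Mrps18a had 17.3, 14.3, 18.0 and 14.6 CPM in input_TH at 3w and 14.1, 17.2, 13.8 and 14.8 at 5m, which overlap. In SC_TH it had 10.7, 10.1, 11.3 and 10.2 at 3w and 19.1, 12.6, 13.5 and 17.5 at 5m, which do not. Its ratio rose by 0.67 ± 0.18 (adjusted p = 0.0463), and with the mouse as a block no member was called. It stayed called without mouse 192 only, and over all single mice left out the count of members called ran from 0 to 5 (4 without mouse 189, 5 without 192). Unadjusted p was under 0.05 for 23 members (29.9%, all genes 21.9%), 80.5% had a positive difference (all genes 47.0%), and DESeq2 called 6, all of them upward. From 5m to 18m edgeR and DESeq2 called 0 members (all genes, 1.78%), with an unadjusted p under 0.05 for 5 (6.49%, all genes 17.0%), and edgeR called 3 without mouse 191.

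The change with age of the level in the homogenate pellet itself, which is not a change of the pellet ratio, gave more calls. From 3w to 5m 12 members rose in SC_TH and 0 fell (9.48% of all 16427 genes rose, 8.46% fell). Their median change was 0.24 against 0.01 for all genes, 85.7% were above 0 (all genes 50.8%), 34 had an unadjusted p under 0.05 (44.2%, all genes 33.7%), and DESeq2 also called 12 higher and 0 lower. Leaving out single mice moved the count to between 5 and 20: it was 6 without mouse 187 or 188, 5 without 191 or 194 and 20 without 192. From 5m to 18m edgeR called 0 members (all genes, 2.17%), with 15 at an unadjusted p under 0.05 (19.5%, all genes 17.5%), 90.9% above 0 (all genes 51.1%) and 1 called by DESeq2. Without mouse 191 edgeR called 3. In SC_TH, 5 of the 8 nuclear RNAs fell in the first step and 7 in the second, 8 of 8 oligodendrocyte markers fell and 4 of 8 microglia markers rose in the first, and depth rose in both. Their part in these counts was not tested.

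The largest rise was in Mrpl54, a mitochondria-specific large-subunit protein (chromosome 10, 81264713 to 81266934, minus strand). Its CPM in SC_TH were 1.82, 2.1, 4.46 and 4.13 at 3w, 6.61, 5.17, 5.69 and 7.43 at 5m, and 6.65, 7.86, 7.01 and 6.65 at 18m. All 5m mice were above all 3w mice, by 0.98 ± 0.23 (adjusted p = 0.00895), while 2 of the 3w mice stood below the others. In input_TH the same gene ran from 3.66 to 4.32 CPM at 3w and from 3.94 to 4.92 at 5m. Mrpl52 rose in SC_TH by 0.72 ± 0.18 (adjusted p = 0.0111), from 5.10, 4.2, 6.22 and 5.78 CPM at 3w to 8.46, 6.32, 9.13 and 11.1 at 5m. Here too the ages did not overlap.

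The other members called were Mrpl36 (0.67 ± 0.20, adjusted p = 0.0271, no longer called without any of 5 of the mice), Mrps16 (0.61 ± 0.21), Mrps18a (0.58 ± 0.15), Mrps30 (0.54 ± 0.17), Mrps14 (0.53 ± 0.15), Mrpl2 (0.49 ± 0.11), Mrps22 (0.46 ± 0.15), Mrpl38 (0.45 ± 0.099), Mrps15 (0.43 ± 0.12) and Mrps12 (0.40 ± 0.13). They come from all 4 structural classes. Mrps30 had 7.28, 5.16, 8.33 and 7.71 CPM at 3w, 10.8, 9.90, 8.05 and 12.9 at 5m and 13, 15.4, 12.5 and 13.9 at 18m. Its 3w and 5m values overlap slightly. Of 5 proteins of the mitochondrial ribosome that carry other names, 3 rose in the same step, Chchd1 by 0.82 ± 0.25, Gadd45gip1 by 0.39 ± 0.11 and Aurkaip1 by 0.29 ± 0.082.

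Calls in input_TH come from a fit of their own, so their counts do not compare with those of SC_TH. In input_TH 1 member rose and 0 fell from 3w to 5m (4.76% of all 18078 genes rose, 7.05% fell), with 6 members at an unadjusted p under 0.05 (7.79%, all genes 25.5%) and 1 called by DESeq2. That gene, Mrps35, a mitochondria-specific small-subunit protein, went from 15.1, 13.3, 12.8 and 14.9 CPM to 16.5, 18.6, 15.6 and 19.6, without overlap (0.32 ± 0.097, adjusted p = 0.0419). The call was lost when any of 5 mice was left out (188, 189, 190, 192 or 194; 0.26 to 0.34), and without mouse 191 the count was 2.

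From 5m to 18m 7 members rose in input_TH and 0 fell (8.18% of all genes rose, 7.35% fell), with 14 at an unadjusted p under 0.05 (18.2%, all genes 31.3%) and 5 called by DESeq2, all upward. The rises made up 9.09% of the members, near the share of all genes, and 15.5% of all genes were called in either direction. The median member change was 0.06, with 63.6% above 0 (all genes 50.0%), below the 0.17 and 90.9% of SC_TH in this step. With trends on GC content and length removed, 3 members rose and 1 fell. Without mouse 193 or 198 the count was 4, and without 196 it was 3. Mrps30 had 9.24, 8.5, 8.16 and 9.02 CPM at 5m and 12.2, 14.7, 11.4 and 11.5 at 18m (0.51 ± 0.10, adjusted p = 0.00598). Mrpl58, a peptidyl-tRNA hydrolase that frees stalled mitochondrial ribosomes, had 21.1, 22.3, 20.5 and 23.2 CPM at 5m and 28.9, 31.6, 27.1 and 27.0 at 18m (0.40 ± 0.074, adjusted p = 0.0041). In both, every old mouse was above every adult mouse. Mrps26 (0.32 ± 0.077), Mrpl28 (0.32 ± 0.082), Mrpl38 (0.32 ± 0.082), Mrpl34 (0.32 ± 0.10) and Mrpl37 (0.21 ± 0.061) followed, and Dap3, a GTP-binding small-subunit protein, rose by 0.28 ± 0.066. Across the 77 members the change in this step ran with GC content (rho = 0.66) and against exonic length (rho = -0.40), and in SC_SYN it ran against GC content (rho = -0.54) and with length (rho = 0.31), a description over genes measured in the same libraries.

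In the synaptosome fractions no member was called for age. In input_SYN edgeR and DESeq2 called 0 of 75 tested members from 3w to 5m (all genes, 3.22%) and 0 from 5m to 18m (0.139%), with 3 at an unadjusted p under 0.05 in each step (4.0%, all genes 16.9% and then 9.36%). Mrpl32 and Mrps28 were below the filter there. In SC_SYN edgeR called 0 of 77 from 3w to 5m (8.05% of all genes) with 9 at an unadjusted p under 0.05 (11.7%, all genes 26.1%), and DESeq2 called 1 higher and 2 lower, and edgeR called 1 without mouse 187, 190 or 194. From 5m to 18m both called 0 (0.014% of all genes), with 5 at an unadjusted p under 0.05 (6.49%, all genes 17.4%). The median changes were small, 0.01 and -0.02 in input_SYN and 0.06 and -0.05 in SC_SYN.

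More members were lower than higher in the synaptosome fraction than in the homogenate. At 3w 9 of 77 were higher in input_SYN than in input_TH and 32 lower, where 31.7% of all 17860 genes were higher and 39.3% lower. At 5m 8 were higher and 25 lower (all genes 32.6% and 40.1%; 6 and 15 without mouse 191), and at 18m 7 and 31 (32.9% and 39.4%). The share of members that was lower, 41.6%, 32.5% and 40.3%, was thus near that of all genes, and the share that was higher, 11.7%, 10.4% and 9.09%, was below it. Median log2 fold changes were -0.26, -0.16 and -0.18, against -0.18, -0.18 and -0.12 for all genes. No test was made of a list against other genes.

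These splits depend on how libraries are scaled, because the composition of SYN and TH differs. With library size alone in place of TMM they were 4 higher and 59 lower at 3w, 2 and 64 at 5m, and 1 and 64 at 18m, and with GC and length trends removed the split at 18m was 13 and 31. Library size alone lowers the median of all genes by 0.53 to 0.65 in the comparisons of SYN with TH. By the same scaling as the members, cytosolic ribosomal protein genes were higher in input_SYN for 67, 71 and 69 of 80, with medians of 0.97, 1.2 and 0.92, and nuclear respiratory chain genes for 51, 49 and 45 of 74 (0.55, 0.56 and 0.43). The nuclear RNAs were lower for 8 of 8 at each age and the astrocyte markers higher for 8 of 8, and their part in the members' ratios was not tested.

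At all 3 ages 5 members (6.49%, against 27.5% of all genes) were higher in input_SYN: Mrps33, Mrps21, Mrpl20, Mrpl48 and Mrps18c. Mrps33 had 31.3, 34.3, 34.1 and 30.8 CPM in input_SYN at 3w, 31.0, 32.7, 26.0 and 23.4 at 5m, and 31.4, 28.4, 37.6 and 26.0 at 18m. All 12 values were above the 12 of input_TH, whose highest was 13.9. The log2 fold changes were 1.4 ± 0.13 (adjusted p = 2.14e-10), 1.2 ± 0.13 (adjusted p = 4.69e-09) and 1.33 ± 0.12 (adjusted p = 1.43e-10). Mrps33 was thus higher in SYN and in the homogenate pellet, and in SC_SYN its 42.5, 70.1, 56.5 and 41.9 CPM at 3w overlapped those of SC_TH.

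Mrps21 (chromosome 3, 95862634 to 95871519, minus strand) was the most abundant member per kilobase in all 4 fractions. It had 14.0, 15.5, 14.9 and 15.3 CPM in input_TH at 3w and 29.6, 33.8, 24.7 and 27.6 in input_SYN. At 5m it had 13.9, 16.5, 13.5 and 14.9 against 29.0, 34.1, 27.4 and 29.7. No synaptosome value overlapped, and the log2 fold changes were 0.99 ± 0.13, 1.04 ± 0.13 and 0.80 ± 0.12 from 3w to 18m. Mrpl48, a mitochondria-specific large-subunit protein, was higher by 0.81 ± 0.095, 0.59 ± 0.095 and 0.51 ± 0.089, from 29.8 to 32.3 CPM in input_TH and 44.3 to 70.2 in input_SYN at 3w. Mrpl20 was higher by 1.23 ± 0.18, 0.81 ± 0.20 and 0.58 ± 0.18, and mouse 190, at 10.9 CPM against 18.7 to 19.6 in the other 3w mice, stood lowest.

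The 20 members that were lower at all 3 ages (26.0%, against 31.7% of all genes) belonged to all classes and included the stalk proteins Mrpl11 and Mrpl12. Mrps10 led at 3w and 5m. In input_SYN it had 1.96, 1.65, 1.90 and 5.14 CPM at 3w, 2.02, 3.22, 4.49 and 3.68 at 5m, and 5.71, 4.76, 3.68 and 5.39 at 18m, against 10.7 to 13.6 over all input_TH libraries. Fractions did not overlap, though the synaptosome values rest on only 3 to 8 counts at 3w and 6 to 11 at 5m. Log2 fold changes were -2.30 ± 0.23 (adjusted p = 6.4e-10), -1.95 ± 0.21 (adjusted p = 2.08e-09) and -1.34 ± 0.16 (adjusted p = 2.61e-08). Mrps10 was thus low after synaptosome isolation and low in the pellet of the homogenate.

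Mrpl33 was lower by -1.13 ± 0.19, -1.34 ± 0.20 and -1.38 ± 0.17 on the log2 scale. In input_SYN it had 5.31, 6.87, 2.53 and 5.78 CPM at 3w, 4.72, 3.68, 4.49 and 5.35 at 5m, and 3.09, 4.95, 2.86 and 5.70 at 18m, all below the 10.6 to 13 of input_TH. Mrpl37, a mitochondria-specific large-subunit protein (chromosome 4, 107055874 to 107066868, minus strand), had 14.2, 13.2, 10.1 and 7.71 CPM in input_SYN at 3w and 27.5, 30.8, 28.3 and 27.4 in input_TH. It did not overlap at any age, with log2 fold changes of -1.24 ± 0.17, -0.68 ± 0.16 and -1.23 ± 0.15. Mrpl3, which reaches toward the site where peptide bonds form, was lower by -0.77 ± 0.13, -0.95 ± 0.13 and -0.63 ± 0.11. Of the related genes Mrps18a, Mrps18b and Mrps18c, the first was lower at 3w (-0.72 ± 0.28) and 18m (-0.61 ± 0.24), the second at 18m (-0.45 ± 0.20), and the third higher at every age (0.69 ± 0.31, 0.67 ± 0.30 and 0.78 ± 0.26), with overlapping groups in each of these calls.

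The synaptosome difference of the inputs changed with age in 1 member. From 5m to 18m Mrps26, a mitochondria-specific small-subunit protein (chromosome 2, 130563742 to 130568695, plus strand), moved by -0.69 ± 0.16 (adjusted p = 0.0198), the single call among 77 where 2.42% of all genes were called. Unadjusted p was under 0.05 for 11 (14.3%, all genes 17.7%), and DESeq2 called 1. In input_TH Mrps26 rose from 35.3, 32.7, 30.6 and 29.4 CPM at 5m to 37.4, 43.7, 39.5 and 39.2 at 18m. In input_SYN it had 25.3, 31.3, 32.8 and 25.1 CPM and then 18.8, 23.8, 21.7 and 23.1. The ages overlapped in neither fraction, and the second difference was not called by itself. The call was lost without mouse 192 or 193 and with GC and length trends removed. From 3w to 5m edgeR and DESeq2 called 0 members (all genes, 0.0224%), with 6 at an unadjusted p under 0.05 (7.79%, all genes 8.05%).

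The ratio of both pellets, SC_SYN over SC_TH, compares mRNA that sediments with ribosomes at the synapse and in the whole cortex. The study takes this ratio as the translational efficiency of synaptosomes. At 3w 13 of 77 members were higher in SC_SYN and 9 lower, where 31.1% of all 16630 genes were higher and 32.4% lower. At 5m 5 were higher and 15 lower (all genes 32.1% and 35.8%), and at 18m 3 were higher and 31 lower (29.9% and 32.2%). Median log2 fold changes were 0.08, -0.11 and -0.31, against -0.04, -0.09 and -0.07 for all genes. Members without overlap between the groups numbered 13, 21 and 36 (16.9%, 27.3% and 46.8%), shares below the 54.7%, 61.1% and 55.5% of all genes. Without mouse 198 the calls at 18m were 22 in place of 34.

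Within single mice the median of the members was 0.19, 0.04, -0.11 and -0.10 at 3w, -0.15, -0.03, -0.05 and -0.20 at 5m, and -0.58, -0.20, -0.29 and -0.51 at 18m. The 3w mice lay on both sides of 0 and the old mice below it, touching the adult mice at -0.20. Yet the change of this ratio with age, tested gene by gene, called 0 members. From 3w to 5m 83.1% were below 0 (all genes 52.9%) with a median of -0.18, 4 had an unadjusted p under 0.05 (5.19%, all genes 7.96%), and 0.0301% of all genes were called. From 5m to 18m 77.9% were below 0 (all genes 48.7%) with a median of -0.22, 12 had an unadjusted p under 0.05 (15.6%, all genes 17.2%), and 0.0% of all genes were called. DESeq2 also called 0 members in each step.

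**Figure D4:**
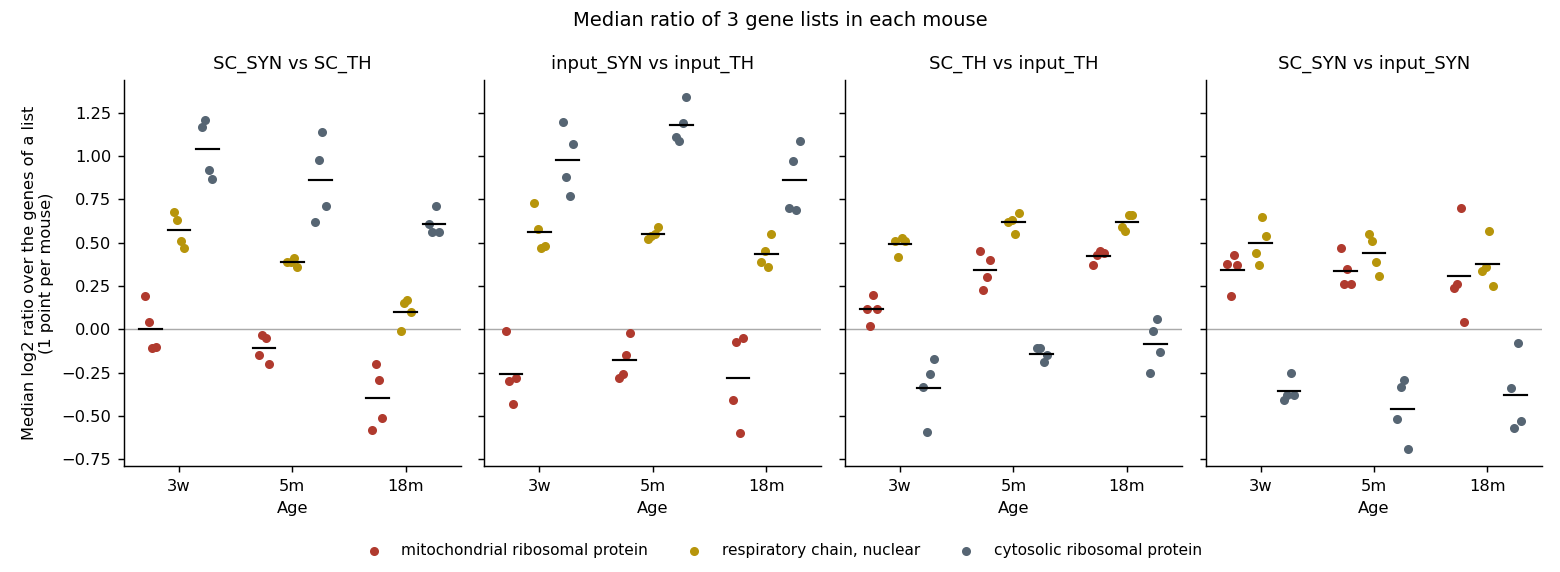
Median log2 ratio of the mitochondrial ribosomal protein genes within each mouse for the 4 pairs of fractions, by age, beside those of the nuclear respiratory chain and cytosolic ribosomal protein genes, with points for mice and lines for the mean of 4 mice. For the mitochondrial ribosome SC_TH over input_TH is above 0 in all 12 mice, and SC_SYN over SC_TH runs from -0.11 to 0.19 at 3w and from -0.58 to -0.20 at 18m.

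The split at 3w did not stand under other scalings. It was 9 higher and 13 lower with DESeq2, 1 and 42 with library size, 8 and 11 without a filter, 12 and 17 with GC and length trends removed, and 10 and 13 with all 48 libraries in 1 fit. Removing the trends moved the member median from 0.08 to -0.041. With library size the splits were 0 and 63 at 5m and 0 and 72 at 18m. In every scaling tried more members were lower than higher at 5m and 18m. Over the same libraries the cytosolic ribosomal protein genes were higher in SC_SYN for 76, 76 and 58 of 79, and nuclear respiratory chain genes for 54, 43 and 21 of 74, with medians of 0.58, 0.42 and 0.19. The nuclear RNAs were lower for 8, 7 and 6 of 8, with 1 higher at 18m, and astrocyte markers were higher for 8 of 8 at each age. Oligodendrocyte markers were higher for 8, 7 and 5 of 8, with 1 lower at 18m (medians 1.33, 0.82 and 0.48), and microglia markers for 7, 8 and 8 of 8. The summed level of the nuclear RNAs in SC_SYN was 899 to 1570, 1120 to 2350 and 2340 to 3600 CPM at the 3 ages. The part of these shifts was not tested.

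By class, the large subunit with bacterial homologues had 5 higher and 1 lower of 29 at 3w, 2 and 3 at 5m and 0 and 11 at 18m. The mitochondria-specific large-subunit genes had 4 and 4 of 21, then 2 and 4, then 1 and 9. In the small subunit 3 and 3 of 16 (bacterial homologue) became 1 and 5 and then 2 and 6, and 1 and 1 of 10 (mitochondria-specific) became 0 and 3 and then 0 and 5. Of all genes 31.1%, 32.1% and 29.9% were higher at the 3 ages and 32.4%, 35.8% and 32.2% lower. All 4 classes had more genes lower than higher at 18m, and no class was tested against all genes. At that age the stalk proteins were lower together, Mrpl10 by -0.53 ± 0.16, Mrpl11 by -0.50 ± 0.14 and Mrpl12 by -0.74 ± 0.24 on the log2 scale, with Mrpl58 at -0.53 ± 0.13, Mrps12 at -0.51 ± 0.18, Mrps30 at -0.60 ± 0.20 and Mrpl41 at -0.64 ± 0.15. At 3w the 3 stalk genes were not called.

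The members lower in SC_SYN at all 3 ages were Mrpl3, Mrpl37, Mrpl58, Mrps2 and Mrps5 (6.49%, against 23.3% of all genes). Mrpl37 had 12.7, 9.03, 10.9 and 12.1 CPM in SC_SYN at 3w, 16.1, 13.1, 14.9 and 14.3 at 5m, and 9.42, 15.1, 15.1 and 7.21 at 18m. In SC_TH it had 19.7, 19.3, 22.3 and 20.4, then 24.0, 17.7, 20.6 and 25.6, then 19.7, 20.5, 25.6 and 26.0. No group overlapped, and the log2 fold changes were -0.82 ± 0.19 (adjusted p = 0.000516), -0.58 ± 0.17 (adjusted p = 0.00387) and -0.89 ± 0.17 (adjusted p = 7.66e-05). Mrpl3 was lower by -0.47 ± 0.12, -0.57 ± 0.11 and -0.83 ± 0.11, from 32.3 to 37.1 CPM in SC_TH and 15.7 to 22.0 in SC_SYN at 18m.

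Mrps9, a small-subunit protein with a bacterial homologue, was the lowest at 3w, with 6.05, 10.8, 11.9 and 9.47 CPM in SC_SYN and 18.7, 22.0, 16.7 and 23.1 in SC_TH. The fractions were apart (-1.01 ± 0.18, adjusted p = 3.04e-05), and Mrps9 was lower at 5m too (-0.74 ± 0.17). Mrps10 led at the later ages, by -1.01 ± 0.26 at 5m (adjusted p = 0.00143) and -1.12 ± 0.25 at 18m (adjusted p = 0.000485). It had 9.70, 6.17, 6.18 and 8.60 CPM in SC_TH at 5m against 4.36, 3.9, 3.57 and 3.49 in SC_SYN. At 18m it had 8.64, 7.24, 9.74 and 10.1 against 3.26, 4.31, 4.87 and 3.06, again apart. At 3w Mrps35 was lower as well (-0.58 ± 0.15), and at 5m Mrps22 (-0.67 ± 0.23), whose call was lost without mouse 191 (-0.45).

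Higher in SC_SYN at all 3 ages were Mrpl48 and Mrps21 (2.6%, against 24.5% of all genes), both relative to the TMM scaling: with library size alone Mrpl48 turned to -0.08, -0.18 and -0.08, and Mrps21 to -0.26 at 18m. Mrps21 had 43.6, 31.0, 37.9 and 35.6 CPM in SC_SYN at 3w against 19.3, 24.4, 25.9 and 27.2 in SC_TH, without overlap (0.67 ± 0.11, adjusted p = 1.38e-05). It was higher by 0.59 ± 0.11 at 5m (adjusted p = 3.04e-05) and by 0.27 ± 0.11 at 18m (adjusted p = 0.0292), where the call was lost without mouse 196, 197 or 198 (0.28, 0.28 and 0.22) and with the mouse as a block (0.27). Mrpl48 had 44.2, 53.8, 45.6 and 46.2 CPM in SC_SYN at 3w and 34.6, 34.4, 33.3 and 39.9 in SC_TH. It was higher by 0.47 ± 0.10, 0.41 ± 0.097 and 0.45 ± 0.096.

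Mrpl52 was higher in SC_SYN at the earlier ages, by 1.22 ± 0.28 at 3w (adjusted p = 0.000575) and 1.02 ± 0.24 at 5m (adjusted p = 0.000518). It had 18.1, 7.07, 11.5 and 11.6 CPM in SC_SYN at 3w and 28.2, 14.2, 16 and 12.7 at 5m, where SC_TH held 5.10, 4.2, 6.22 and 5.78 and then 8.46, 6.32, 9.13 and 11.1. In each age 1 mouse stood above the others, and the fractions did not overlap. At 18m its values of 9.42, 13.4, 14.3 and 10.3 overlapped the 10.1 to 10.8 of SC_TH. Mrps18c was called at 18m (0.70 ± 0.26, adjusted p = 0.0218) with overlapping groups.

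**Figure D5:**
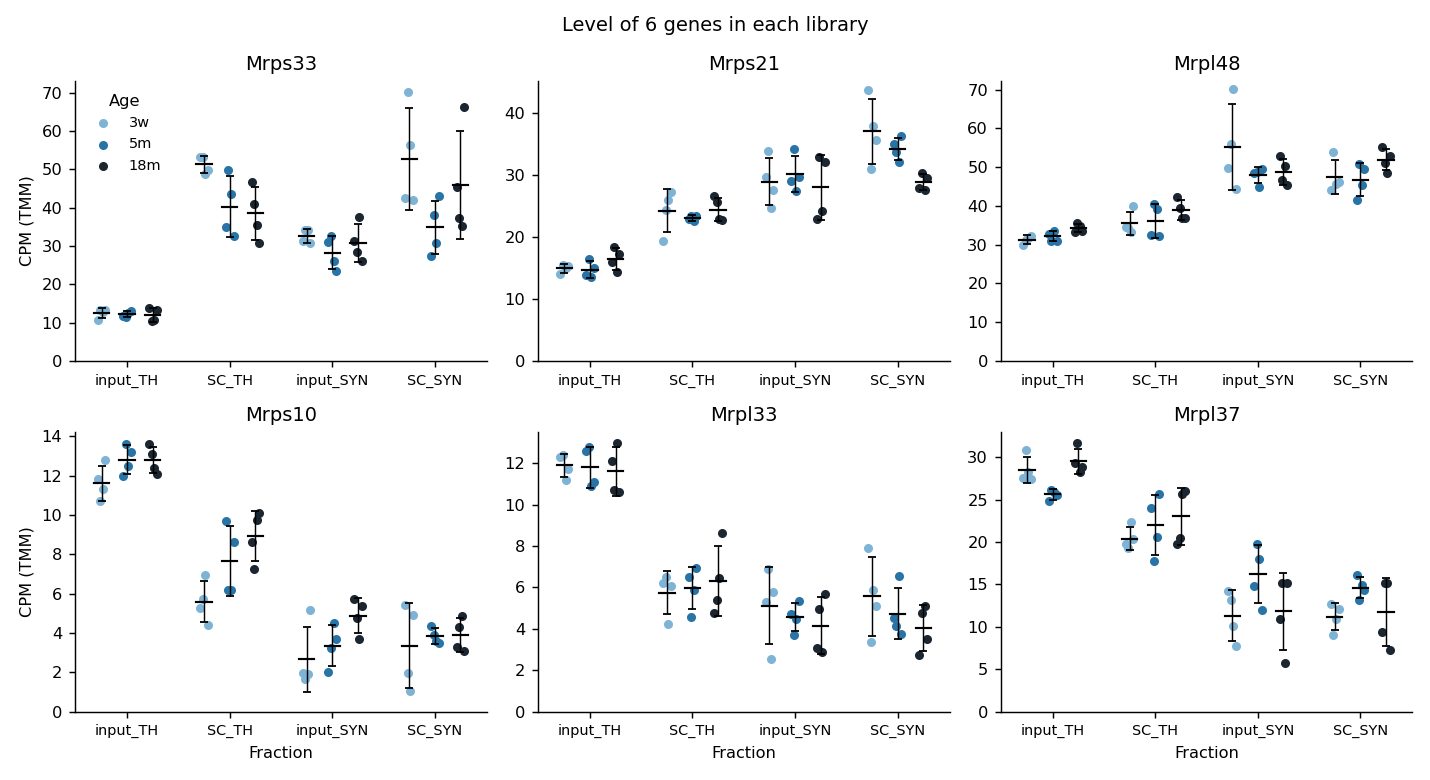
CPM of 6 mitochondrial ribosomal protein genes in each of the 48 libraries, by fraction and age, with points for mice and lines and bars for the mean and SD of 4 mice. Mrps33 lies at 10.3 to 13.9 CPM in input_TH and at 23.4 or more in all other libraries, while Mrps10 and Mrpl33 are highest in input_TH.

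Within synaptosomes all members called were higher in the pellet than in the input. At 3w 17 of 77 members were higher in SC_SYN than in input_SYN and 0 lower (9.04% of all 14301 genes higher, 9.5% lower). At 5m 17 were higher and 0 lower (9.66% and 10.3%), and at 18m 9 were higher and 0 lower (5.88% and 6.7%). Unadjusted p was under 0.05 for 25, 26 and 28 members (32.5%, 33.8% and 36.4%, all genes 32.0%, 33.3% and 25.4%), and DESeq2 called 13, 17 and 13, all of them higher. Median log2 fold changes were 0.33, 0.29 and 0.29 against 0.01, 0.01 and 0.02 for all genes, and all 12 mice were above 0, from 0.04 to 0.70. Leaving out a mouse lowered the count at 3w to 6, 8, 10 and 11 (mouse 187, 188, 189 and 190), at 5m to 6, 5 and 10 (191, 192 and 193) and at 18m to 4, 5 and 4 (195, 196 and 197). A change of the ratio with age was called in 0 members by edgeR and DESeq2, with 0.0% of all genes called in the first step and 0.0% in the second, and 3 and 0 members at an unadjusted p under 0.05 (3.9% and 0.0%, all genes 3.31% and 2.75%).

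Mrpl13, Mrpl15, Mrpl24 and Mrps34 were called at all 3 ages (5.19%, against 3.8% of all genes), and no member was lower at all 3 (0.0%, against 3.66%). Mrpl13, a large-subunit protein with a bacterial homologue, had 8.66, 7.14, 6.32 and 3.21 CPM in input_SYN at 3w and 14.8, 13.9, 13.2 and 12.7 in SC_SYN. The fractions were well apart (1.01 ± 0.24), with 0.62 ± 0.22 at 5m (overlapping) and 0.67 ± 0.21 at 18m. Mrpl15, a large-subunit protein with a bacterial homologue, had 8.94, 8.24, 11.4 and 10.9 CPM in input_SYN at 3w and 19.4, 28.9, 20.9 and 16.3 in SC_SYN, again apart (1.14 ± 0.25, adjusted p = 0.00263). Mrpl24 was higher by 0.89 ± 0.17, 0.86 ± 0.16 and 0.62 ± 0.16, and Mrps34 shares 77.8% of its exonic length with other genes.

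Further calls were Mrpl16 at 5m (1.17 ± 0.29, adjusted p = 0.00521), Mrps14 at 3w (1.04 ± 0.22, adjusted p = 0.00209), Mrpl40 at 5m (1.00 ± 0.23) and Mrpl39 at 18m (0.84 ± 0.23). Without 1 mouse some calls were lost: Mrpl16 without mouse 191 or 192 (1.04 or 0.90), Mrpl39 without 197 or 198 (0.77 or 0.59), Mrpl13 at 18m without 195, 196 or 197 (0.60 to 0.62), Mrpl24 at 18m without 198 (0.46) and Mrpl15 at 3w without 188 (0.86). Among cytosolic ribosomal protein genes 0 of 79 were higher and 19, 36 and 26 lower, and in the homogenate too more were lower than higher. Nuclear respiratory chain genes went with the members, 30, 24 and 21 of 74 higher. The nuclear RNAs were lower for 6, 6 and 2 of 8, and astrocyte markers were higher for 5, 4 and 4 of 8. Their part in these ratios was not tested.

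Other genes of mitochondrial translation gave mixed calls. The 5 proteins of the mitochondrial ribosome with other names split: Gadd45gip1, Aurkaip1 and Dap3 were higher in SC_TH than in input_TH at all ages (Gadd45gip1 by 0.57 ± 0.11, 0.87 ± 0.096 and 0.73 ± 0.092, Aurkaip1 by 0.71 ± 0.082, 0.93 ± 0.075 and 0.75 ± 0.074). Ptcd3, an RNA-binding small-subunit protein, was lower there (-0.23 ± 0.096, -0.57 ± 0.09 and -0.45 ± 0.089) and lower in input_SYN than in input_TH (-1.50 ± 0.15, -1.56 ± 0.15 and -1.17 ± 0.13). Of 12 translation factors, 3, 5 and 6 were higher in SC_TH and 1, 2 and 3 lower. Tufm, the elongation factor that brings tRNAs to the mitochondrial ribosome, was higher by 1.04 ± 0.097, 1.08 ± 0.091 and 0.78 ± 0.089.

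Of 25 genes for factors that build the mitochondrial ribosome, 0, 2 and 2 were higher in SC_TH than in input_TH and 8, 7 and 7 lower (32.0%, 28.0% and 28.0%, near the 26.6%, 32.2% and 32.7% of all genes), with medians of -0.16, -0.00 and 0.04 where the ribosomal proteins had 0.17, 0.34 and 0.46. In input_SYN 0 were higher at any age and 12, 14 and 17 lower than in input_TH, with medians of -0.49, -0.57 and -0.52. Mitochondrial aminoacyl-tRNA synthetases, which load tRNAs, were higher in SC_TH for 0, 0 and 1 of 17 and lower for 8, 7 and 8. The difference between these lists and the members was not tested.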

How the data were processed

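RNA-seq counts of 48 libraries from 12 mice were used. Per the study's methods, the authors depleted rRNA, prepared stranded libraries with molecular adaptors, made reads with bcl2fastq 2.20.0.422, aligned them to GRCm38 with TopHat2 2.1 and counted them per Ensembl gene without strand. Whether duplicates were removed is not given in the sources used here. The deposited values are raw counts per gene.

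The 78 members and the gene lists were chosen with earlier results of these data known. Symbols, exon lengths and overlaps came from GENCODE M21 (48144 of 48526 ids found, the others holding 0.0596% of counts). Tests used edgeR 4.0.16 under R 4.3.3 with limma 3.58.1, by TMM, filterByExpr with a minimum count of 10 and the quasi-likelihood test, in 1 fit per fraction (12 libraries) for age and per pair of fractions (24 libraries) for the rest, without a mouse term, with interactions for changes of a ratio. CPM used TMM over all 48 libraries, and log2 CPM a prior count of 2. DESeq2 1.42.0, library size, no filter, loess trends on GC and length removed (span 0.5), all 48 libraries, no mitochondrially encoded genes, a mouse block and leaving out each mouse were the alternatives. On simulated counts with a planted log2 change of 1.5, larger than most member changes, the test recovered 96% of planted genes for SC_SYN 18m vs 5m (14078 genes). It recovered 95.4% for SC_SYN over SC_TH at 5m (15983 genes), 81.6% for the change of that ratio from 5m to 18m (15955 genes) and 87.9% for SC_SYN over input_SYN at 5m (14141 genes). Member changes in SC_SYN from 5m to 18m ran from -0.57 to 0.58, all smaller than the planted change. Recovery of changes of that size was not simulated, so the 96% does not bear on the 0 members called there.

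Named genes were, per comparison, the 3 largest rises and 3 largest falls that passed the threshold of 0.05, did not overlap and averaged 20 counts or more in the group with more, with the adjusted p alone for interactions. Added were the 3 highest and 3 lowest per kilobase in input_TH, a fixed set (Mrpl10, Mrpl11, Mrpl12, Mrpl58, Mrps12, Mrps18a, Mrps18b, Mrps18c, Mrps30 and Mrps36), members under the filter and the 5 genes with other names. Members named only as further calls or overlaps in a list were chosen after their values were seen.

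Libraries of 1 mouse share the animal. For the pairing, deviations from group means correlated within a mouse with a median r of -0.0464 for SC_SYN with SC_TH, 0.134 for input_SYN with input_TH, 0.127 for SC_TH with input_TH and 0.143 for SC_SYN with input_SYN. No 2 replicate libraries agreed within sampling noise (chi-square per gene 1.98 to 32.2 over 72 pairs).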

Additional observations from a re-analysis of the deposited data

Results flagged for a closer look

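In groups of 4 mice, a value was singled out where its gap to the nearest other mouse, divided by the range of the group, was above Dixon's critical value at the 95% level. Of 180 groups 5 met this, where 9 would be expected at 1 in 20. In input_TH at 5m mouse 193 had a member share of 0.124% against 0.129% to 0.130% (gap ratio 0.833). Mouse 190 stood apart in input_SYN at 3w for Mrps10 (5.14 CPM against 1.65 to 1.96, gap ratio 0.912) and for Mrpl20 (10.9 against 18.7 to 19.6, gap ratio 0.894). Mrps18a was highest in mouse 193 in SC_SYN at 5m (13.9 CPM against 11.3, gap ratio 0.971), and Mrpl13 lowest in mouse 188 in input_TH at 3w (11.9 against 13.2 to 13.5, gap ratio 0.834).

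Changes with age were called as differing between fractions in 2 members, and both calls were lost with GC and length trends removed. Mrps26 moved by -0.69 in input_SYN relative to input_TH from 5m to 18m (adjusted p = 0.0198, edgeR), where 2.42% of all genes were called. Mrps18a moved by 0.67 in SC_TH relative to input_TH from 3w to 5m (adjusted p = 0.0463, edgeR), where 2.33% were. The call of Mrps18a was also lost with the mouse as a block.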

How the results depend on the processing

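Of 384 alternative counts of called members 306 stayed within 1.5 times the reported count. Scaled by library size and not TMM, the counts for SC_SYN over SC_TH were 43, 63 and 72, and for input_SYN over input_TH 63, 66 and 65. Library size lowers all genes there by construction, since the fractions differ in TMM factor. With GC and length trends removed, SC_SYN over SC_TH at 5m had 34 called members, SC_SYN over input_SYN at 18m 15, input_TH 2 for 5m vs 3w and 4 for 18m vs 5m, SC_SYN 5m vs 3w 1, and both interaction calls became 0. DESeq2 called 1 member for SC_TH 18m vs 5m, 3 for SC_SYN 5m vs 3w and 6 for the change of SC_TH over input_TH from 3w to 5m. Without a filter SC_TH had 20 for 5m vs 3w and 1 for 18m vs 5m, and that interaction 7. Without mitochondrially encoded genes it had 3 and with library size 0. Library size also gave 3 for input_TH and 2 for SC_SYN, both 5m vs 3w. With all 48 libraries in 1 fit the counts for 5m vs 3w were 0 in input_TH, 5 in SC_TH, 1 in input_SYN and 7 in SC_SYN, those for 18m vs 5m 0 in input_TH and 1 in SC_SYN, both interaction calls were 0 and SC_SYN over input_SYN at 18m had 22. Apart from these constructions the cause was not tested. Under library size Mrpl48 in SC_SYN over SC_TH turned to -0.08, -0.18 and -0.08 at the 3 ages, and Mrps21 to -0.26 at 18m.

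With the mouse as a replicate block, the change of SC_TH over input_TH from 3w to 5m had 0 called members in place of 1, and no other of 20 counts moved by over 1.5 times. With block and trends removed together, SC_SYN over SC_TH at 5m had 33, SC_SYN over input_SYN at 18m 14, and both interaction calls were 0. Of the named genes, the block took the call from Mrps18a (that change) and Mrps21 (SC_SYN over SC_TH at 18m).

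Leaving out 1 mouse gave 0 to 2 called members in input_TH 5m vs 3w, 3 to 8 in input_TH 18m vs 5m, 5 to 20 in SC_TH 5m vs 3w, 0 to 3 in SC_TH 18m vs 5m and 0 to 1 in SC_SYN 5m vs 3w. It gave 22 to 33 for SC_SYN over SC_TH at 18m, 21 to 26 for input_SYN over input_TH at 5m, and 6 to 11, 5 to 13 and 4 to 10 for SC_SYN over input_SYN at 3w, 5m and 18m. For changes of a ratio it gave 0 to 1 (input_SYN over input_TH, 5m to 18m), 0 to 5 (SC_TH over input_TH, 3w to 5m) and 0 to 3 (5m to 18m). The share of counts without mitochondrially encoded genes moved to 0.127%, 0.132% and 0.134% in input_TH and 0.0778% in input_SYN at 5m. Input_SYN libraries were the shallowest, with 10 counts for as few as 58 members, and recovery of planted changes with age was not simulated there.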
